A study of Mus musculus with 6 samples.

Results

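The fluid and electrolyte secretion transporters described here are 37 genes chosen by name: the water channels, chloride and potassium channels, ion cotransporters and exchangers, sodium pump subunits, sodium channel subunits and carbonic anhydrases through which an exocrine gland moves salt and water. They were found by their GRCm38 symbols in a table of 50686 genes, and each of the 37 matched a single identifier. The table holds read counts from total RNA of lacrimal glands, the exocrine glands beside the eye that secrete the watery layer of the tear film, from mice 13 weeks old. There were 3 glands of Eda-/- mice, titled Tabby, and 3 of wild-type mice, titled Blacky, each called a biological replicate by the submitters, and all 6 carried the strain label C57BL/6. Eda, on the X chromosome, encodes a TNF-family ligand, ectodysplasin A, needed for the development of hair, teeth and several glands. The genotype label names no tissue-restricted allele, and the sex of the mice and any littermate relation were not given in the sources used here.

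In an exocrine acinar cell, the sodium pump drives the sodium-potassium-chloride cotransporter Slc12a2 on the basolateral side, which loads the cell with chloride. A calcium signal then opens the apical chloride channel Ano1 and potassium channels such as Kcnn4 and Kcnma1, chloride leaves into the lumen, sodium follows between the cells, and water moves through Aqp5. Carbonic anhydrases and bicarbonate transporters set the pH of the cell and of the fluid, and duct cells then change its composition, for instance through Cftr or the epithelial sodium channel.

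Library totals were 11894395 to 14480331 counts in Eda-/- and 13670343 to 15700899 in wild-type glands. Eda itself had 2, 0 and 0 counts in the Eda-/- libraries and 41, 48 and 42 in the wild-type libraries, which follows the labels. Lacrimal acinar markers were high in both groups, with Bhlha15, a transcription factor of secretory cells, at 412 to 465 CPM (counts as a rate of library size, scaled between libraries by the trimmed mean of M-values, TMM) in Eda-/- and 327 to 356 CPM in wild-type, while the listed acinar genes Prol1 and Dcpp1 were at or near 0. The summed level of the 12 acinar markers was 55660 to 57460 CPM in Eda-/- and 39880 to 41660 CPM in wild-type, and 4 of 10 tested markers rose. Most of that sum was Scgb2b24 (38010 CPM on average in Eda-/- and 26810 CPM in wild-type) and Pip, both of which rose. The listed transcription factors Tfcp2l1 (log2 -0.29) and Pax6 (-0.07) and the granule protein Rab27b (-0.04) did not pass, and the markers named here were picked after the values were seen. Salivary gland markers summed to at most 1.125 CPM and skeletal muscle markers to at most 2.74 CPM in any library.

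Of the 37 transporters, 5 fell in the Eda-/- glands and none rose. Those that fell were the sodium pump regulator Fxyd3, the pump subunit Atp1b3, the sodium-bicarbonate cotransporters Slc4a4 and Slc4a7 and the membrane-bound carbonic anhydrase Car12. The central genes of chloride-driven secretion, Slc12a2, Ano1, Kcnma1, Kcnn4 and Aqp5, did not pass. A total of 29 transporters had enough counts to be tested with edgeR's quasi-likelihood test, and a gene passed at a Benjamini-Hochberg adjusted p under 0.05 over all 13178 tested genes. Over all tested genes 13.1% passed in either direction, 6.21% higher and 6.9% lower in Eda-/- glands, against 17.2% of the tested transporters. At an unadjusted p under 0.05 there were 4 transporters higher and 7 lower, against 13.3% and 14.3% of all tested genes. DESeq2 passed none higher and 5 lower (4.16% and 5.27% of all tested genes), and limma-voom none higher and 6 lower (5.33% and 5.92%).

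**Figure D1:**
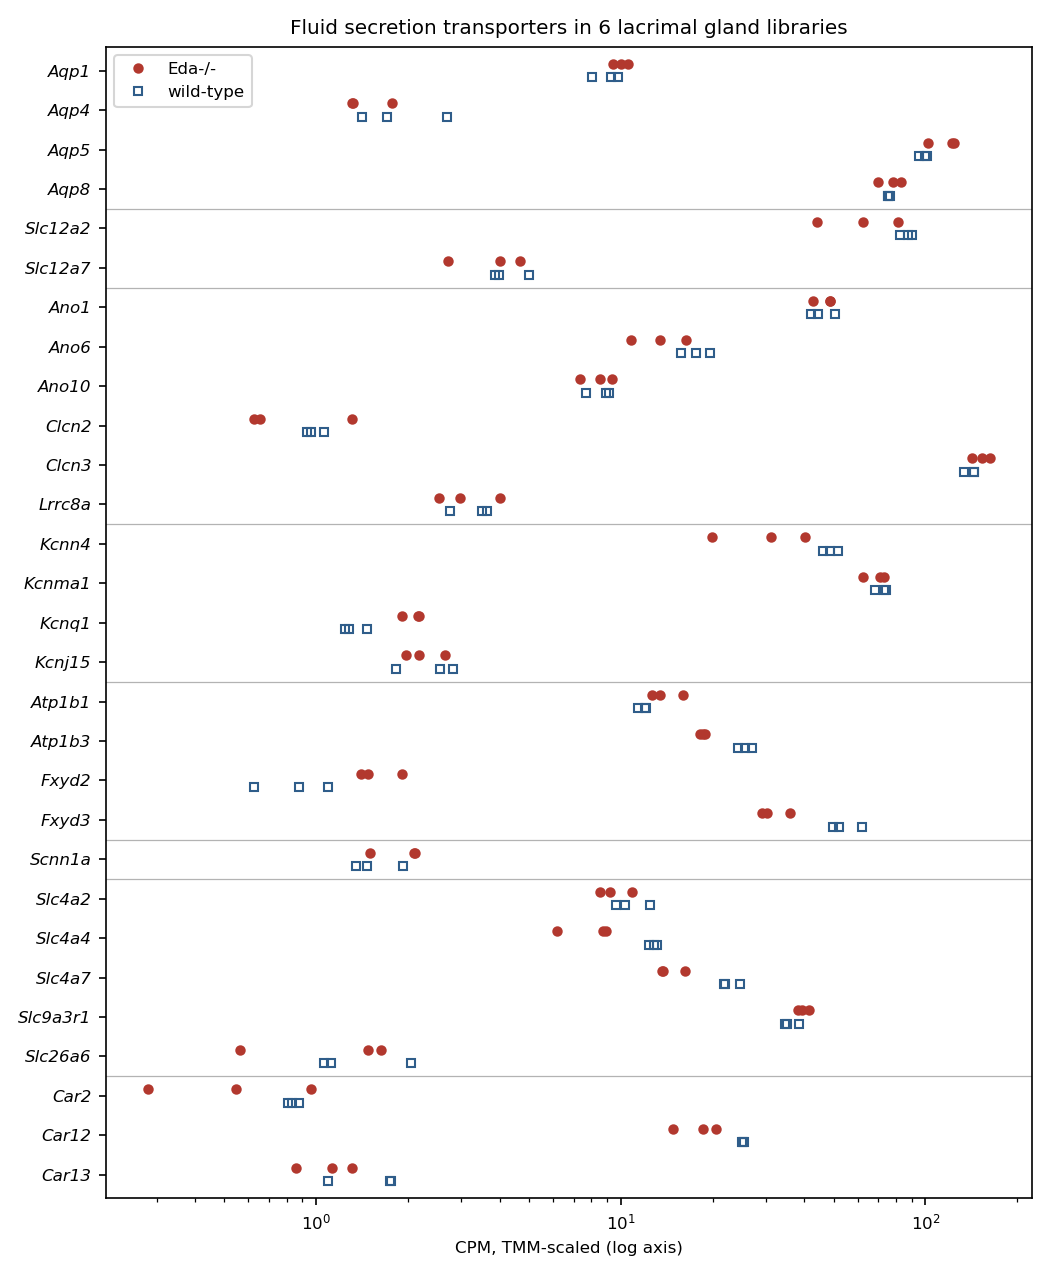
TMM-scaled CPM (log axis) of the 29 tested transporters in each library, Eda-/- as filled circles above wild-type as open squares, with lines between the functional groups. The circles lie wholly left of the squares for Fxyd3, Atp1b3, Slc4a4, Slc4a7 and Car12, which passed. They also do for Kcnn4 and Slc12a2, which did not pass and show wide spreads among the Eda-/- libraries. For Aqp5, Kcnq1, Atp1b1 and Fxyd2, which did not pass, the circles lie wholly right.

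The median log2 fold change (Eda-/- over wild-type throughout) of the 29 tested transporters was -0.16, against 0.003 for all tested genes, with 10 values above 0 and 19 below. In 11 of the 29 the libraries of the groups did not overlap, 4 with Eda-/- higher and 7 with it lower, and the same held for 32.1% of all tested genes. The 37 transporters together took 0.0690% ± 0.0009 of all counts in Eda-/- and 0.0908% ± 0.0026 in wild-type libraries (SD, n = 3 each). After TMM scaling their summed level was 746, 757 and 781 CPM in Eda-/- and 834, 820 and 823 CPM in wild-type libraries. The median was -0.26 without Eda-/- library 1 and -0.05 without Eda-/- library 2.

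**Figure D2:**
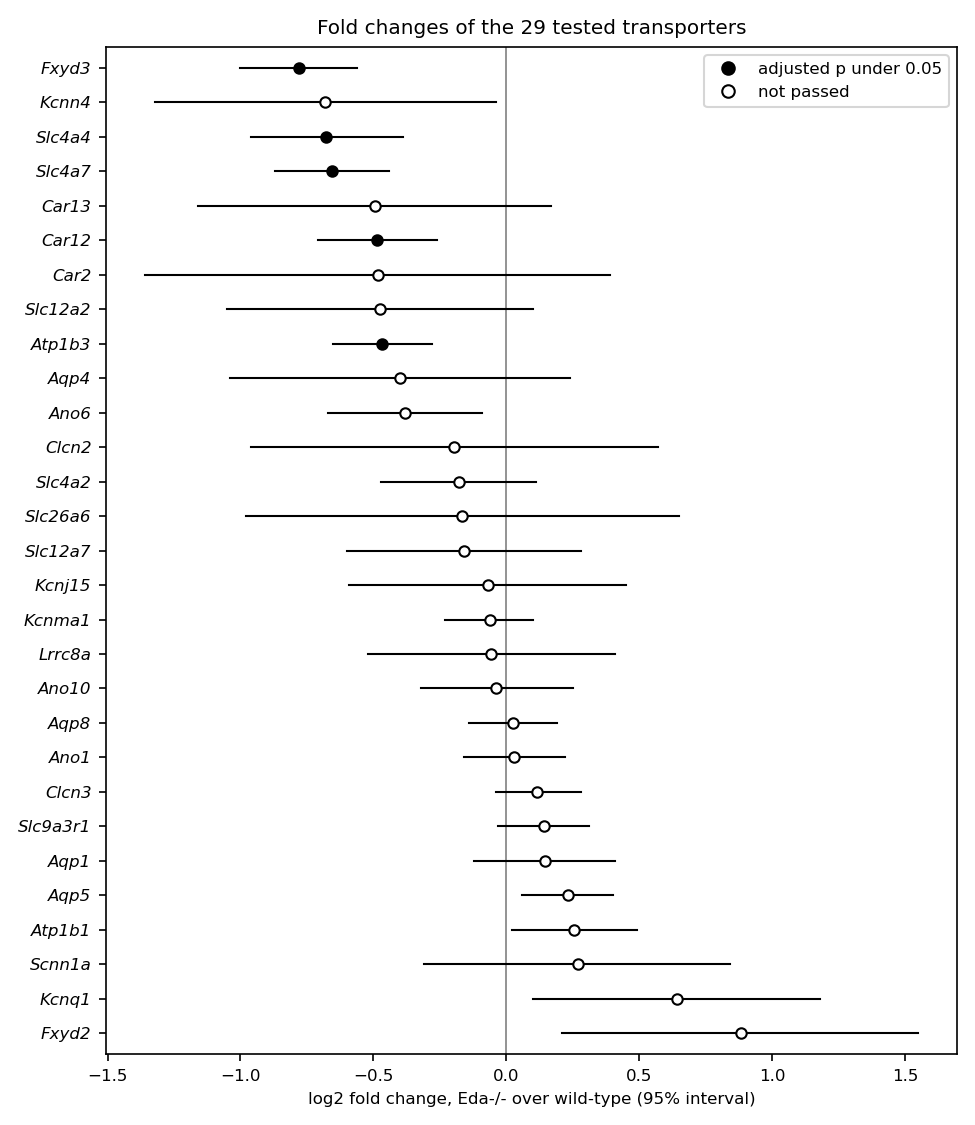
Log2 fold changes of the 29 tested transporters with 95% intervals, ordered from the lowest; filled circles passed at an adjusted p under 0.05. The 5 filled circles lie between -0.78 and -0.47, and the 4 unfilled intervals that lie wholly above 0 belong to Aqp5, Atp1b1, Kcnq1 and Fxyd2. The unfilled intervals of Kcnn4 and Ano6 lie wholly below 0.

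Markers of several other cell types moved between the groups. Macrophage and dendritic cell markers summed to 55.4 to 65.1 CPM in Eda-/- and 118 to 228 CPM in wild-type libraries, and 6 of 11 tested markers fell. DESeq2 passed 10 of the 11 lower and limma-voom 9, and all 11 were lower at an unadjusted p under 0.05 in edgeR. Myoepithelial markers summed to 99.6 to 116 CPM in Eda-/- and 134 to 173 CPM in wild-type, with 4 of 8 lower. Fibroblast markers summed to 165 to 192 CPM in Eda-/- and 207 to 269 CPM in wild-type, with 3 of 8 lower. Of 12 tested duct markers none passed in edgeR, DESeq2 or limma-voom (sums of 716 to 761 CPM in Eda-/- and 752 to 810 CPM in wild-type). At an unadjusted p under 0.05 in edgeR, 1 was higher (Elf5, log2 0.23) and 2 lower (Elf3, -0.61, and Cldn4, -1.27). Most of each sum was Ehf (317 CPM on average in Eda-/- and 330 CPM in wild-type), Krt18 (174 and 193 CPM) and Krt8 (165 and 176 CPM). The sums thus say little about the scarcer duct markers. Nerve and glia markers summed to 17.1 to 19.7 CPM in Eda-/- and 22.9 to 25.6 CPM in wild-type, with 1 of 6 lower. Of 3 tested Harderian gland markers 1 rose, Dgat2 (47.8 CPM on average in Eda-/- and 0.782 CPM in wild-type), while Soat1, most of that list's sum of 256 to 315 CPM in Eda-/- and 228 to 254 CPM in wild-type, averaged 233 CPM in Eda-/- and 237 CPM in wild-type. Lymphocyte and plasma cell markers summed to 105 to 258 CPM in Eda-/- and 28.2 to 121 CPM in wild-type. Of 3 tested none passed in edgeR or DESeq2, and 2 passed higher in limma-voom. The 1 with an unadjusted p under 0.05 in edgeR was lower in Eda-/-. The part of these markers in the transporter values was not tested. In whole glands, fewer cells of a type and less RNA per cell cannot be told apart.

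Of the 4 tested sodium pump subunits and regulators, Fxyd3 and Atp1b3 fell and Atp1b1 and Fxyd2 did not pass. The pump exchanges sodium for potassium and is built of a catalytic alpha and a beta subunit, to which a small FXYD protein can bind. Fxyd3 (ENSMUSG00000057092.12, protein-coding, GRCm38 chromosome 7, 31068172 to 31076704, minus strand), an FXYD regulator of the pump, had 36.0, 29.2 and 30.1 CPM in the Eda-/- libraries, against 49.6, 51.9 and 61.8 CPM in the wild-type libraries. All 3 Eda-/- libraries lay below all wild-type libraries, with means of 31.7 ± 3.70 and 54.5 ± 6.47 CPM (SD, n = 3 each), a log2 fold change of -0.78 (SE 0.10, edgeR adjusted p = 0.000133).

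Atp1b3 (ENSMUSG00000032412.8, protein-coding, chromosome 9, 96332655 to 96364442, minus strand), which encodes a beta subunit of the pump, had 18.2, 18.9 and 18.6 CPM in Eda-/- and 24.3, 25.6 and 27.0 CPM in wild-type glands. The groups did not overlap, and the Eda-/- libraries differed little among themselves (18.6 ± 0.385 against 25.7 ± 1.35 CPM, SD, n = 3 each; -0.47, SE 0.09, adjusted p = 0.00242 in edgeR). The other listed beta subunit, Atp1b1, had 12.7, 13.5 and 16.1 CPM in Eda-/- and 12.03, 11.4 and 12.1 CPM in wild-type glands. It did not pass (log2 0.25, 95% interval 0.02 to 0.49, edgeR adjusted p = 0.157). The ratio of Atp1b3 to Atp1b1 within a library, per exonic base, does not depend on scaling between libraries; it was 1.85, 1.81 and 1.49 in Eda-/- and 2.61, 2.90 and 2.89 in wild-type libraries, a comparison chosen after the values were seen.

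Fxyd2, the FXYD regulator best known from the kidney, was near the lower limit of what could be tested, with 22, 15 and 19 counts in Eda-/- and 10, 15 and 17 in wild-type libraries. It did not pass, at a log2 fold change of 0.88 (95% interval 0.21 to 1.55) and an edgeR adjusted p = 0.0794. The ratio of Fxyd3 to Fxyd2 per exonic base was 15.5, 17.1 and 16.8 in Eda-/- and 65.7, 48.6 and 46.8 in wild-type libraries, without overlap, and this ratio too was chosen after the values were seen. The counts of 3 of these genes are in part uncertain. Lgi4 lies opposite 42.5% of the exonic bases of Fxyd3, and the strand setting of the counting is not given, but Lgi4 itself averaged 1.27 CPM in Eda-/- and 1.59 CPM in wild-type libraries. Nme7 lies opposite 18.7% of the exonic bases of Atp1b1 and averaged 4.38 CPM in Eda-/- and 3.57 CPM in wild-type libraries. Atp1b3 shares 16.2% of its 31-base words with other transcripts, the most with the processed pseudogene Gm1848.

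**Figure D3:**
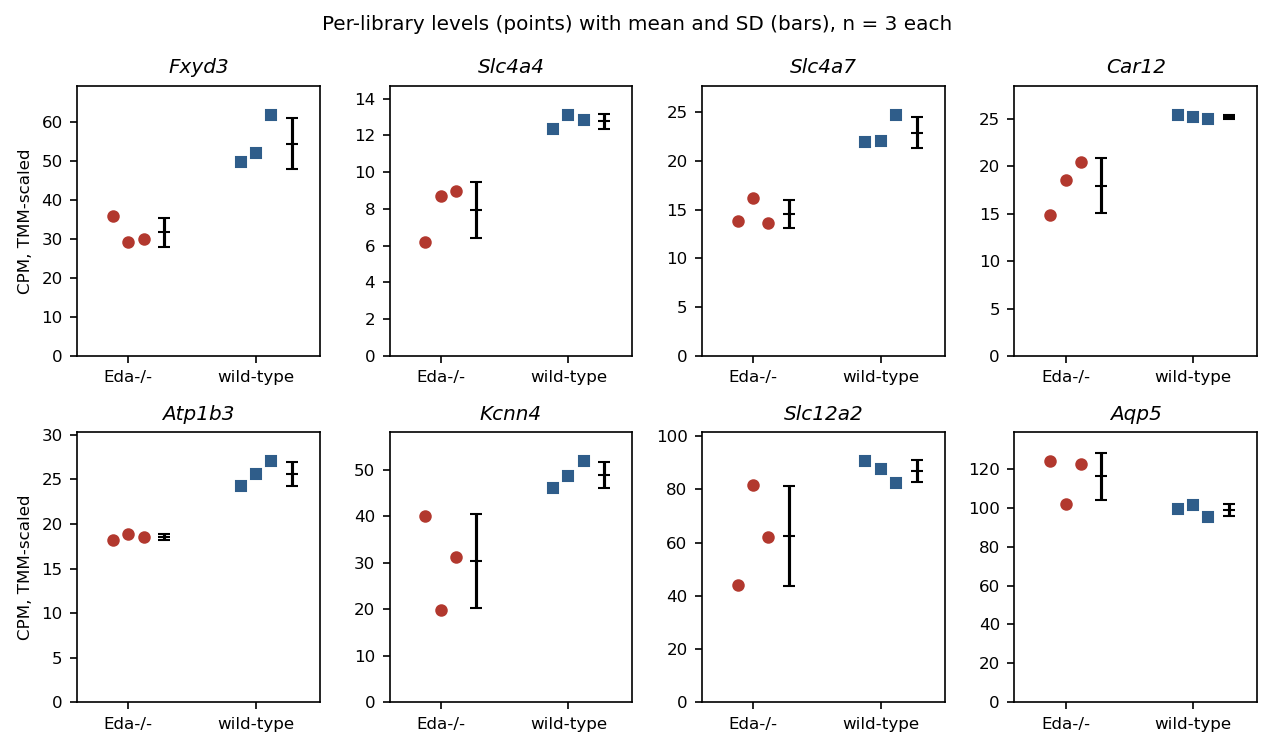
TMM-scaled CPM of 8 transporters in each library (points; Eda-/- left, wild-type right; axes start at 0), with the mean and SD of the 3 libraries as bars. Fxyd3, Slc4a4, Slc4a7, Car12 and Atp1b3 passed, with all Eda-/- points below all wild-type points; Kcnn4, Slc12a2 and Aqp5 did not pass.

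Both listed sodium-bicarbonate cotransporters fell. Slc4a4 (ENSMUSG00000060961.14, protein-coding, chromosome 5, 88886818 to 89239653, plus strand), the electrogenic cotransporter that brings bicarbonate into secretory epithelia, had 6.20, 8.72 and 8.97 CPM in Eda-/- and 12.3, 13.1 and 12.8 CPM in wild-type libraries. Eda-/- library 1 was the lowest, and all 3 Eda-/- libraries lay below the wild-type range (7.96 ± 1.53 against 12.8 ± 0.390 CPM, SD, n = 3 each), a log2 fold change of -0.68 (SE 0.14, edgeR adjusted p = 0.00355). Slc4a7 (ENSMUSG00000021733.9, protein-coding, chromosome 14, 14702279 to 14799940, plus strand), the electroneutral cotransporter, had 13.8, 16.2 and 13.6 CPM in Eda-/- and 21.9, 22.0 and 24.7 CPM in wild-type libraries. Its groups did not overlap either (14.6 ± 1.44 against 22.9 ± 1.60 CPM, SD, n = 3 each; -0.65, SE 0.10, adjusted p = 0.000482 in edgeR).

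The anion exchangers and their scaffold did not pass. Slc4a2, a chloride-bicarbonate exchanger of the basolateral membrane, had 10.9, 9.18 and 8.58 CPM in Eda-/- and 12.5, 9.64 and 10.3 CPM in wild-type glands, which overlap (log2 -0.18, 95% interval -0.47 to 0.11, edgeR adjusted p = 0.428). Fastk lies opposite 13.7% of the exonic bases of Slc4a2 and averaged 28.7 CPM in Eda-/- and 24.7 CPM in wild-type libraries. Without a stated strand setting, reads of Fastk cannot be fully separated from those of Slc4a2. Slc9a3r1, a PDZ scaffold that anchors transporters at the apical membrane, had 41.4, 39.5 and 38.1 CPM in Eda-/- and 34.5, 35.0 and 38.4 CPM in wild-type glands, also with an overlap (0.14, 95% interval -0.03 to 0.31, adjusted p = 0.288 in edgeR). Slc26a6, an apical exchanger of chloride for bicarbonate and oxalate, had 17, 6 and 21 counts in Eda-/- and 18, 18 and 32 in wild-type libraries, too few for a narrow interval (log2 -0.17, 95% interval -0.98 to 0.65). Slc26a4, the anion exchanger pendrin, had 0, 1 and 2 counts in Eda-/- and 2, 0 and 2 in wild-type libraries and was not tested.

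Among the carbonic anhydrases, which interconvert carbon dioxide and bicarbonate, Car12 fell. Car12 (ENSMUSG00000032373.15, protein-coding, chromosome 9, 66713686 to 66766845, plus strand), with its catalytic domain outside the cell, had 14.8, 18.6 and 20.5 CPM in Eda-/- and 25.4, 25.2 and 25.0 CPM in wild-type glands. The wild-type libraries were close together and all above the Eda-/- libraries (18.0 ± 2.88 against 25.2 ± 0.236 CPM, SD, n = 3 each), a log2 fold change of -0.49 (SE 0.11, edgeR adjusted p = 0.00751). The cytosolic enzymes were scarce. Car2 had 11, 3 and 7 counts in Eda-/- and 13, 15 and 13 in wild-type libraries (log2 -0.48, 95% interval -1.36 to 0.39), and Car13 had 15, 12 and 11 counts in Eda-/- and 28, 30 and 17 in wild-type libraries (-0.49, 95% interval -1.16 to 0.17). Neither passed, although their fold changes were as large as that of Car12; their counts do not allow a difference of that size to be told from the spread. Car2 is also abundant in red blood cells, whose 7 markers summed to 5.22 to 14.9 CPM in Eda-/- and 19.6 to 29.2 CPM in wild-type libraries, with 3 of 5 tested markers lower; their part in the Car2 value was not tested.

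The sequences around the RefSeq start sites of the genes that fell are shown so that their starts can be compared. Each is 300 bases on GRCm38.p6, 250 before and 50 after the start, read 5′ to 3′ on the gene's strand; capitals mark each CG and, in Slc4a7, the TATAAA.
Car12, chr9:66713436-66713735, plus strand: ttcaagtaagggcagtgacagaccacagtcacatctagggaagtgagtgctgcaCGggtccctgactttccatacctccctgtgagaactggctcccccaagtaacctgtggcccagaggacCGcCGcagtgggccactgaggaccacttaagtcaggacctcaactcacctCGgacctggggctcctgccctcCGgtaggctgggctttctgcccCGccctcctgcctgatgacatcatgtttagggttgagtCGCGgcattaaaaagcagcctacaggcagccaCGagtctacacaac
Slc4a7, chr14:14718534-14718833, plus strand: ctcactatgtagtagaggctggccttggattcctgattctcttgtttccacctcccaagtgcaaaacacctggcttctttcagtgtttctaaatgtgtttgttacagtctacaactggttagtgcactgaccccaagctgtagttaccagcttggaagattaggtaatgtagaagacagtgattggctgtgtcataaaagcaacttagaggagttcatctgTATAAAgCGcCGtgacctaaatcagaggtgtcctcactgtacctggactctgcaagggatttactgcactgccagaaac
Slc4a4, chr5:88887010-88887309, plus strand: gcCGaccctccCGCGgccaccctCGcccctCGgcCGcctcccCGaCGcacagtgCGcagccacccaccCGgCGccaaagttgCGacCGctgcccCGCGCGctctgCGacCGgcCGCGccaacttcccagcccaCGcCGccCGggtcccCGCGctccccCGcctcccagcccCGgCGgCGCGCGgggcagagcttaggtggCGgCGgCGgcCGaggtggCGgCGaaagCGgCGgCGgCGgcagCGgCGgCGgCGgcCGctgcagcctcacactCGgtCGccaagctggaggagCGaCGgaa
Slc4a4, chr5:89027716-89028015, plus strand: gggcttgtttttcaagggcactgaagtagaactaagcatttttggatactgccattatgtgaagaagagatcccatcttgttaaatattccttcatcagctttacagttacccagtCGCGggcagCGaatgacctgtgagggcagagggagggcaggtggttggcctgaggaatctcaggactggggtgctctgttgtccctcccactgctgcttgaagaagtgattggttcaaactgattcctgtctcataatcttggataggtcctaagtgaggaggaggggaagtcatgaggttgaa
Fxyd3, chr7:31076648-31076947, minus strand: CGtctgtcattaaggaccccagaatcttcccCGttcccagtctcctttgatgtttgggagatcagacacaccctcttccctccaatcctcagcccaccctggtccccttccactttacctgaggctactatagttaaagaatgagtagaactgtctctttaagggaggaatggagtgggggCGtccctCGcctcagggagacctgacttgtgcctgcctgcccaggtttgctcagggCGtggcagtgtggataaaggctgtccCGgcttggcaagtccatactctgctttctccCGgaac
Atp1b3, chr9:96364382-96364681, minus strand: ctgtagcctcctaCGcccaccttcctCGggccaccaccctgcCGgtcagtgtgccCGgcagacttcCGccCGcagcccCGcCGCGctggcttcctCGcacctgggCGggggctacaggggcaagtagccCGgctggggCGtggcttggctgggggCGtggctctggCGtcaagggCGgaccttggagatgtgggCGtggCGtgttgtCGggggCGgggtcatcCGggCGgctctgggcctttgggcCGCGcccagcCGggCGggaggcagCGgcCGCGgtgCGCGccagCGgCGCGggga
Atp1b3, chr9:96363666-96363965, minus strand: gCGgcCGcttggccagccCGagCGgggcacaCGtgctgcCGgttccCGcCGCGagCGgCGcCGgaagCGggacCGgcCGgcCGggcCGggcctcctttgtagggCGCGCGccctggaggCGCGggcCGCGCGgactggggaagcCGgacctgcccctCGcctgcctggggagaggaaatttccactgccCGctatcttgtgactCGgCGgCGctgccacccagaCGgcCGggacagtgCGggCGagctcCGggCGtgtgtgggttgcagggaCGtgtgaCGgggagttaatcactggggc
The starts were of unlike kinds. The upstream Slc4a4 start held 50 CG and was 80.0% G or C, and the Atp1b3 starts held 34 (76.0%) and 39 (74.7%). The downstream Slc4a4 start held 3 CG (48.3% G or C) and Slc4a7 2 (45.0%), with Fxyd3 at 7 (55.0%) and Car12 at 9 (58.3%), against medians of 7 and 52.7% over 32817 such windows. The TATAAA of Slc4a7 began 29 bases before its start. That start, the only one shown for Slc4a7, lies inside the gene, whose annotated 5′ end is at 14702279. The tables held windows for 29 of the 37 transporters, 37 windows in all. On either strand, TATAAA was found in 5 of these 37 windows and in 13.6% of all windows, and the E-box CAGCTG, its own reverse complement, in 5 and in 16.3%. A narrow form of the NF-kB motif was found in 0 of these windows and in 1.63% of all windows. Looser forms of the NF-kB motif were not searched for, so the 0 does not show that such sites are absent. For each motif, a window without a match says only that the form searched for is not there.

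None of the 4 tested water channels passed in edgeR, DESeq2 or limma-voom, and 1, Aqp5, had an unadjusted p under 0.05. Aqp5, the apical water channel of acinar cells, had 124, 102 and 122 CPM in Eda-/- and 99.3, 101 and 95.3 CPM in wild-type glands. The Eda-/- libraries were all above the wild-type libraries, library 2 only just (116 ± 12.1 against 98.6 ± 3.06 CPM, SD, n = 3 each; log2 0.23, 95% interval 0.06 to 0.40, edgeR adjusted p = 0.0672). It passed without Eda-/- library 2 (log2 0.32, edgeR adjusted p = 0.019), and with library totals in place of TMM its value was -0.05. Aqp8, a channel for water and small solutes such as ammonia, had 78.0, 70.0 and 83.4 CPM in Eda-/- and 76.6, 75.5 and 75.1 CPM in wild-type libraries. The wild-type values fell inside the Eda-/- range, and the interval of the difference was narrow (0.03, 95% interval -0.14 to 0.19).

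Aqp1, a water channel of endothelium and red blood cells, had 10.04, 10.6 and 9.43 CPM in Eda-/- and 9.29, 8.06 and 9.82 CPM in wild-type glands (log2 0.14, 95% interval -0.12 to 0.41). Endothelial markers summed to 52.2 to 57.2 CPM in Eda-/- and 60.6 to 75.0 CPM in wild-type libraries, with 2 of 10 lower and 1 higher. Aqp4, best known from glia and from basolateral membranes of glands, had 15, 19 and 17 counts in Eda-/- and 43, 29 and 22 in wild-type libraries (log2 -0.40, 95% interval -1.04 to 0.24). Aqp3, which also passes glycerol, had 0, 2 and 0 counts in Eda-/- and 2, 3 and 5 in wild-type libraries. Aqp11, an intracellular channel, had 3 counts in each Eda-/- library and 5, 6 and 4 in the wild-type libraries, and neither Aqp3 nor Aqp11 could be tested.

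The Eda-/- libraries disagreed widely on the chloride-loading step. Slc12a2, the basolateral sodium-potassium-chloride cotransporter, had 44.0, 81.4 and 62.1 CPM in Eda-/- and 90.5, 87.5 and 82.6 CPM in wild-type glands. Every Eda-/- library was below every wild-type library, but library 2 by about 1 CPM and library 1 by far more (62.5 ± 18.7 against 86.8 ± 4.01 CPM, SD, n = 3 each). It did not pass (log2 -0.48, 95% interval -1.05 to 0.10, edgeR adjusted p = 0.258), and it passed with library totals and without Eda-/- library 2 (-0.70, edgeR adjusted p = 0.00784), but not without library 1 (-0.27, adjusted p = 0.14 in edgeR). Slc12a7, a potassium-chloride cotransporter through which both ions leave, had 46, 29 and 60 counts in Eda-/- and 62, 68 and 78 in wild-type libraries (log2 -0.16, 95% interval -0.60 to 0.28). Neither passed in DESeq2 or limma-voom, and neither had an unadjusted p under 0.05.

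Of the 6 tested chloride channel and scramblase genes none passed in edgeR, DESeq2 or limma-voom, and 1, Ano6, had an unadjusted p under 0.05. Ano1, the calcium-activated chloride channel of the apical membrane, had 42.8, 48.7 and 48.4 CPM in Eda-/- and 50.6, 41.99 and 44.5 CPM in wild-type glands. The groups overlapped over most of their range (log2 0.03, 95% interval -0.16 to 0.22). Clcn3, an intracellular chloride-proton exchanger, had 142, 163 and 154 CPM in Eda-/- and 144.5, 144 and 134 CPM in wild-type libraries (0.12, 95% interval -0.04 to 0.28). Ano6, a calcium-activated lipid scramblase, had 16.3, 10.8 and 13.5 CPM in Eda-/- and 19.6, 15.8 and 17.6 CPM in wild-type glands, with 1 Eda-/- library inside the wild-type range (-0.38, 95% interval -0.67 to -0.09, edgeR adjusted p = 0.0825). It passed in 4 of 16 alternatives: without Eda-/- library 1 (-0.53, edgeR adjusted p = 0.0243), with a replicate block (-0.39, adjusted p = 0.0237 in edgeR), with no filter on low counts and with library totals.

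Ano10 had 9.34, 8.53 and 7.33 CPM in Eda-/- and 7.67, 8.94 and 9.18 CPM in wild-type glands (log2 -0.04, 95% interval -0.32 to 0.25). Lrrc8a, the essential subunit of the channel that opens when cells swell, had 46, 27 and 38 counts in Eda-/- and 56, 62 and 43 in wild-type libraries (-0.06, 95% interval -0.52 to 0.41); it shares 66.2% of its exonic bases with Gm28035 on the same strand, so its counts are uncertain. Clcn2, a chloride channel opened by hyperpolarisation, had 15, 7 and 8 counts in Eda-/- and 15, 18 and 15 in wild-type libraries (-0.20, 95% interval -0.96 to 0.57). Cftr, the cyclic AMP-regulated chloride channel of duct cells, had 3, 2 and 8 counts in Eda-/- and 11, 6 and 12 in wild-type libraries, too few to be tested.

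Among the potassium channels, none of the 4 tested genes passed in edgeR or DESeq2 and 1, Kcnn4, passed lower in limma-voom, with 2 at an unadjusted p under 0.05. Kcnn4, the intermediate-conductance calcium-activated channel, had 40.1, 19.9 and 31.2 CPM in Eda-/- and 46.1, 48.8 and 51.8 CPM in wild-type glands. All Eda-/- libraries lay below the wild-type range and differed widely among themselves (30.4 ± 10.1 against 48.9 ± 2.86 CPM, SD, n = 3 each; log2 -0.68, 95% interval -1.32 to -0.04, edgeR adjusted p = 0.162). It passed in 6 of 16 alternatives, among them edgeR without Eda-/- library 1 (-0.92, adjusted p = 0.026) and without library 2 (-0.45, adjusted p = 0.0182), and in limma-voom (-0.73, adjusted p = 0.0244). Kcnn4 is also expressed by immune cells and red blood cells, whose marker sums are given with the other cell types and with Car2, and their part in its value was not tested.

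Kcnma1, the large-conductance calcium-activated channel, had 62.4, 70.8 and 72.8 CPM in Eda-/- and 74.3, 72.8 and 68.2 CPM in wild-type glands, overlapping (log2 -0.06, 95% interval -0.23 to 0.10). The ratio of Kcnn4 to Kcnma1 per exonic base was 2.13, 0.931 and 1.42 in Eda-/- and 2.06, 2.22 and 2.52 in wild-type libraries, with an overlap, a comparison chosen after the values were seen. Kcnq1, a voltage-gated channel, had 22, 23 and 28 counts in Eda-/- and 20, 25 and 20 in wild-type libraries, which after scaling gave 1.92, 2.16 and 2.18 CPM in Eda-/- and 1.25, 1.47 and 1.28 CPM in wild-type libraries, without overlap (0.64, 95% interval 0.10 to 1.18, edgeR adjusted p = 0.115). The antisense transcript Kcnq1ot1, which lies opposite 2.96% of its exonic bases, averaged 160 CPM in Eda-/- and 208 CPM in wild-type glands, and without a stated strand setting its reads cannot be fully separated from those of Kcnq1. Kcne1, a partner subunit of Kcnq1, had no count in the Eda-/- libraries, which allows up to 0.0777 CPM over the group (a floor of 3 counts), and 0, 1 and 0 in wild-type libraries. The inward rectifier Kcnj15 had 25, 21 and 34 counts in Eda-/- and 41, 31 and 44 in wild-type libraries (-0.07, 95% interval -0.59 to 0.45), and Kcnj16, which forms channels with other inward rectifiers, had 6, 8 and 3 in Eda-/- and 5, 1 and 7 in wild-type libraries and was not tested.

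The epithelial sodium channel had few counts. It is built of the subunits Scnn1a, Scnn1b and Scnn1g and takes up sodium from the lumen in absorbing ducts. Scnn1a had 24, 16 and 27 counts in Eda-/- and 31, 25 and 21 in wild-type libraries and did not pass (log2 0.27, 95% interval -0.31 to 0.84). Scnn1b had 0, 0 and 4 counts in Eda-/- and 0, 0 and 2 in wild-type libraries, and Scnn1g had 0, 0 and 1 in both groups, so that a difference in these subunits was not detectable at this depth.

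Per kilobase of exonic bases, Aqp8 and Aqp5 stood highest among the transporters, at 48.8 ± 4.25 and 44.6 ± 4.65 CPM per kilobase in Eda-/- and 47.9 ± 0.507 and 38.0 ± 1.18 CPM per kilobase in wild-type glands (SD, n = 3 each). With the length of the longest transcript their order turned, with Aqp8 at 51.9 and Aqp5 at 64.5 CPM per kilobase in Eda-/- and 50.9 and 54.9 in wild-type glands, so no order between them is given. Slc9a3r1 came next, at 20.6 ± 0.851 CPM per kilobase in Eda-/- and 18.7 ± 1.11 in wild-type glands. Fxyd3, Atp1b3 and Kcnn4 followed in wild-type glands at 11.2 ± 1.33, 10.7 ± 0.566 and 9.56 ± 0.560 CPM per kilobase, of which the first pair did not differ beyond their spread. In Eda-/- glands the genes after Slc9a3r1 were Clcn3 (8.95 ± 0.614), Atp1b3 (7.76 ± 0.161), Ano1 (7.47 ± 0.536) and Fxyd3 (6.54 ± 0.762). By the longest transcript Fxyd3 (18.8) stood level with Slc9a3r1 (18.7) in wild-type glands, and Clcn3 (17.2), Kcnn4 (13.4) and Slc12a2 (13.3) stood above Atp1b3 (12.9). In Eda-/- glands Clcn3 (18.6), Fxyd3 (11.0), Ano1 (10.2), Slc12a2 (9.59) and Atp1b3 (9.30) then followed Slc9a3r1. The order of the genes after Slc9a3r1 thus depends on the length used. The longest transcript left 9 of the 10 highest wild-type genes among the 10 highest.

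Genes of the same families and their regulators, 144 in a list that holds no transporter described so far, moved in both directions. Of the 63 tested, 7 rose and 6 fell (20.6%, against 13.1% of all tested genes), and their median log2 fold change was 0.01. Without Eda-/- library 2 only 2 fell, without Eda-/- library 3 only 3, and in DESeq2 3. Stk39, the kinase that phosphorylates and activates Slc12a2, had 105, 104 and 109 CPM in Eda-/- and 82.1, 82.3 and 82.5 CPM in wild-type glands, without overlap (106 ± 3.07 against 82.3 ± 0.182 CPM, SD, n = 3 each; 0.36, SE 0.07, edgeR adjusted p = 0.00218). Wnk2, of the WNK kinases that act upstream of Stk39, had 25.4, 24.7 and 29.4 CPM in Eda-/- and 47.0, 52.7 and 40.4 CPM in wild-type glands, also without overlap (-0.81, SE 0.10, adjusted p = 9.85e-05 in edgeR). Wnk1 (-0.01, 95% interval -0.15 to 0.14) and the Stk39-related kinase Oxsr1 (0.11, 95% interval -0.09 to 0.31) did not pass. With library totals Stk39 was 0.08 higher and did not pass.

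**Figure D4:**
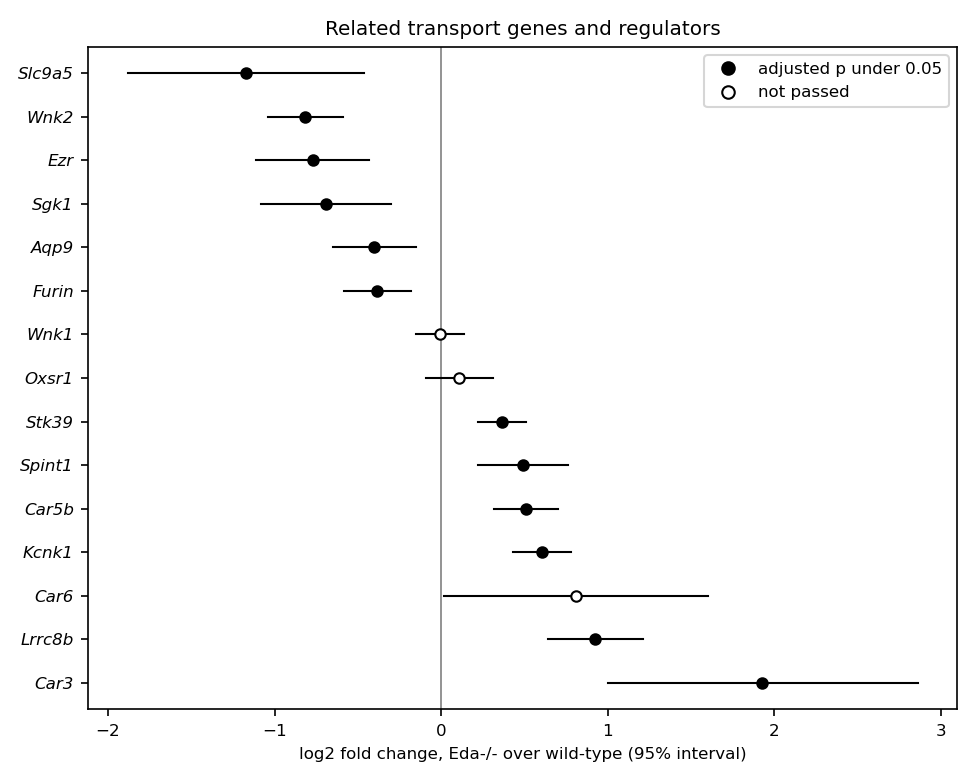
Log2 fold changes with 95% intervals of 15 related transport genes and regulators, filled where the adjusted p was under 0.05. Stk39, Spint1, Car5b, Kcnk1, Lrrc8b and Car3 lie filled to the right of 0, and Slc9a5, Wnk2, Ezr, Sgk1, Aqp9 and Furin to the left.

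Lrrc8b, a partner of Lrrc8a in the swelling-activated channel, had 62.2, 68.0 and 73.5 CPM in Eda-/- and 28.9, 35.9 and 42.8 CPM in wild-type glands, without overlap (67.9 ± 5.68 against 35.8 ± 6.94 CPM, SD, n = 3 each; log2 0.92, SE 0.13, edgeR adjusted p = 0.00129). Kcnk1, a background potassium channel, had 60.2, 66.5 and 56.0 CPM in Eda-/- and 41.7, 40.7 and 37.7 CPM in wild-type glands, without overlap (0.60, SE 0.08, adjusted p = 0.000173 in edgeR). The mitochondrial carbonic anhydrase Car5b rose by 0.51 and the cytosolic Car3 by 1.93 on the log2 scale, the last from few counts (0.873, 2.999 and 2.10 CPM in Eda-/-, against 0.624, 0.588 and 0.321 CPM in wild-type). Car3 is also abundant in fat, whose 8 markers summed to 9.82 to 13.7 CPM in Eda-/- and 10.9 to 25.6 CPM in wild-type libraries. Most of the wild-type sum was Lpl (6.81, 7.12 and 4.99 CPM in Eda-/-, 8.48, 9.35 and 23.6 CPM in wild-type), which did not pass. Of 3 tested fat markers 2 rose, Fabp4 (log2 1.98) and Cfd (1.43). The part of these markers in the Car3 value was not tested. The secreted carbonic anhydrase Car6, the most abundant gene of the list, had 2305, 2128 and 3496 CPM in Eda-/- and 1820, 1618 and 1087 CPM in wild-type glands, without overlap, and did not pass (0.81, 95% interval 0.02 to 1.60, edgeR adjusted p = 0.175); it passed in limma-voom and without the robust spread estimate. The channel-activating protease Furin (-0.38), the kinase Sgk1 (-0.69), which promotes sodium channel activity, the membrane-cytoskeleton linker Ezr (-0.77), the sodium-proton exchanger Slc9a5 (-1.17) and the water channel Aqp9 (-0.40) fell, and the protease inhibitor Spint1 (0.49) rose. Several of these calls were lost under alternatives: Aqp9 did not pass in 7 of 16, among them DESeq2 (adjusted p = 0.145) and the replicate block (edgeR adjusted p = 0.0531), Sgk1 in 5 of 16 and Slc9a5 in 5 of 15, both including DESeq2 (adjusted p = 0.0813 and 0.117), and Furin and Spint1 in 3 of 16 each. Slc26a9 had 4, 1 and 1 counts in Eda-/- and 2, 3 and 5 in wild-type libraries and was not tested.

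How libraries were scaled set the direction of the smaller values. The 10 most abundant genes took 54.4% to 55.2% of counts in Eda-/- and 48.2% to 49.9% in wild-type libraries, and when library totals replaced TMM the median of all tested genes moved to -0.28. The transporters moved with it: their median was -0.44, which is -0.17 relative to all tested genes, and the same difference was -0.16 with TMM. With library totals 12 transporters passed lower and none higher, against 33.1% lower and 1.87% higher over all tested genes. The 5 that fell with TMM also passed with each of the 4 scalings.

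**Figure D5:**
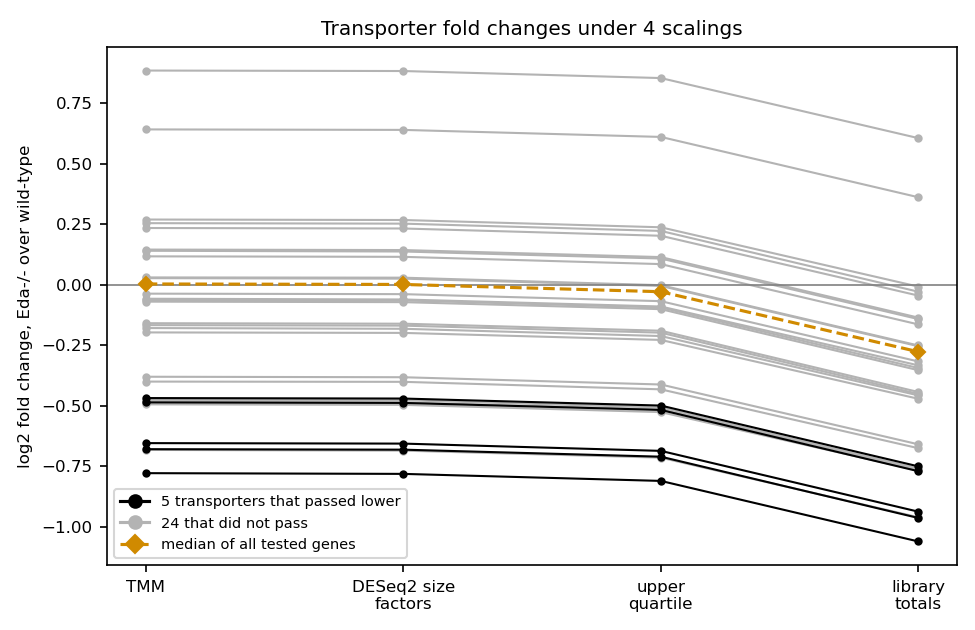
Log2 fold changes of the 29 tested transporters under 4 scalings, with the 5 that passed lower in black, the others in grey and the median of all tested genes as orange diamonds. The lines shift down together with library totals, where the diamond lies at -0.28.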

How the data were processed

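Total RNA of 6 lacrimal glands, 3 Eda-/- and 3 wild-type, was sequenced after ribosomal RNA removal with directional libraries, per the labels' protocols. The authors deposited 1 table of raw counts per gene, with a column per sample matched by title and 0 columns left unmatched. Reads were handled with Trimmomatic, STAR and featureCounts (bcl2fastq and DESeq2 are also listed) on GRCm38.p5, per the submitters' processing notes; versions, annotation release, strand setting and the handling of reads with several matches were not given in the sources used here, so overlapping and near-identical genes are uncertain. Symbols and coordinates came from GENCODE M21 (GRCm38), matched by identifier without version for 50462 of 50686 genes. RefSeq start windows (GRCm38.p6) were used for sequences.

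Genes kept by filterByExpr (minimum count 10; 13178) entered a test in edgeR 4.0.16 (R 4.3.3): TMM scaling, genotype as the only term, robust quasi-likelihood fits, two-sided tests, Benjamini-Hochberg adjustment over all tested genes, threshold 0.05. Each SE is the size of the log2 fold change over the square root of F, and 95% intervals use the fit's degrees of freedom. CPM are TMM-scaled and means have SD over 3 libraries. Floors use unscaled library totals and cover counting error only. The common biological coefficient of variation was 0.103, and no pair of replicates agreed within sampling noise (chi-square per degree of freedom 8.61 to 24.9). The fit was tested on simulated counts. Alternatives were DESeq2 1.42.0, limma-voom (limma 3.58.1), other scalings, filters and spread estimates, a replicate block and each library left out.

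The transporters and lists were chosen with earlier results of these data known. All 37 transporters are accounted for; related genes are named where they passed (up to 15 in each direction) or were on a fixed list, and some of these are not reported here. The within-library ratios, the genes that overlap or share words with transporters and the count without transporters that share 10% or more of their words were chosen after the data were seen.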

Additional observations from a re-analysis of the deposited data

How the results depend on the processing

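The 5 transporters that fell kept their direction and passed in all 16 alternatives each (log2 -1.06 to -0.67 for Fxyd3, -0.96 to -0.52 for Slc4a4, -0.94 to -0.59 for Slc4a7, -0.77 to -0.36 for Car12 and -0.75 to -0.42 for Atp1b3). Of 376 alternative values of the 24 tested transporters that did not pass, 337 kept direction and side of the threshold, 15 passed in the same direction and 24 changed sign, of which 2 passed (Aqp8 and Ano1, with library totals). Of the 12 related genes named that passed, Lrrc8b, Kcnk1 and Wnk2 passed in all alternatives, and 27 of 190 values of the 12 did not pass. With library totals 246 genes rose and 4365 fell, 12 transporters fell (median -0.44), and 3 related genes rose and 22 fell; Aqp1 (-0.14), Aqp5 (-0.045), Aqp8 (-0.25), Ano1 (-0.25), Clcn3 (-0.16), Atp1b1 (-0.029), Scnn1a (-0.008), Slc9a3r1 (-0.14) and Oxsr1 (-0.17) changed sign, as did Aqp8 (-0.005) and Ano1 (-0.002) with the upper quartile. The shift of the median of all genes to -0.28 accompanies these. In DESeq2 3 related genes fell. With a minimum count of 30 the transporters' median was -0.088. Leaving out the transporters that share 10% or more of their words with another gene, chosen after seeing the data, left 24 tested, of which 3 fell (median -0.11), since Fxyd3 and Atp1b3 are among those left out. Without each library in turn, 599 (without Eda-/- library 3) to 834 genes fell, 0 to 1 transporters rose (Aqp5, without Eda-/- library 2), 2 (without Eda-/- library 2) to 6 related genes fell, 3 without Eda-/- library 3, and the transporters' median ran from -0.26 (without Eda-/- library 1) to -0.045 (without Eda-/- library 2). Values that changed sign when a library was left out ran from -0.10 to 0.006 for Kcnma1, -0.025 to 0.038 for Wnk1, -0.337 to 0.028 for Slc12a7, -0.256 to 0.076 for Lrrc8a, -0.229 to 0.072 for Kcnj15, -0.43 to 0.21 for Slc26a6, -0.029 to 0.095 for Aqp8, -0.117 to 0.061 for Ano10, -0.616 to 0.011 for Clcn2 and -0.017 to 0.118 for Ano1. The cause of these changes was not tested. Groups share replicate numbers, but of 3 same-number pairs 0 had deviations correlated above 0.1, and 0 of 6 libraries correlated best with their own number, so the numbers were not taken as pairs; with a replicate block 712 genes rose and 896 fell, 6 transporters fell (Ano6 besides the 5) and none rose (median -0.18), and 8 related genes rose and 5 fell. Depth limits the transporters with few counts: 8 of 37 were not tested.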

Other observations

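The large-conductance potassium channel subunit Lrrc26, which lets Kcnma1 open at rest in secretory cells, had 70.4, 63.3 and 70.7 CPM in Eda-/- and 64.4, 61.3 and 63.1 CPM in wild-type glands. Per exonic base the ratio of Kcnma1 to Lrrc26 was 0.0622, 0.0785 and 0.0722 in Eda-/- and 0.0808, 0.0832 and 0.0758 in wild-type libraries, with an overlap. The ratio of Aqp5 to Aqp8 was 0.965, 0.887 and 0.892 in Eda-/- and 0.788, 0.817 and 0.772 in wild-type libraries, without overlap. Lrrc26 and these ratios were chosen after the values were seen.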
